A study of Mus musculus with 16 samples.

Results

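The 9 transcription factors described here, Runx3, Runx1, Etv1, Isl1, Pou4f1, Shox2, Maf, Mafa and Prdm12, were taken as a named list from 49671 listed genes, and were followed in single neurons of mouse dorsal root ganglia (DRG). The series holds CEL-Seq2 libraries, in which each well of a plate receives 1 cell and transcripts are counted at their 3′ end by unique molecular identifiers (UMIs). There were 10 libraries from e15.5 embryos of the PvtdTom strain, a BAC line in which the parvalbumin promoter drives tdTomato, and 6 libraries from p1 pups labelled "Trpv1Cre; PvFlp; Ai65 and PvCre; Ai14". All cells were tdTomato+, sorted by fluorescence at e15.5 and, per the study's methods, picked by hand at p1, and each library holds 96 wells. Every group therefore carries a reporter that depends on parvalbumin, a calcium-binding protein best known in this tissue from muscle afferents and also present in some touch neurons of the skin, and the Ai65 pups carry a second condition, a history of Trpv1Cre. The labels give neither the segmental level of a library nor, at p1, its line. Nothing says which libraries came from separate animals, so p-values measure the spread between libraries, and age cannot be told apart from mouse line or from sorting against picking.

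Proprioceptors are the sensory neurons that report muscle length and tension, and they depend on neurotrophin 3 and its receptor TrkC, the product of Ntrk3. Low-threshold mechanoreceptors often carry TrkB (Ntrk2). Isl1 and Pou4f1 are homeodomain factors shared by nearly all sensory neurons. The Runt factors divide the lineages, with Runx3 needed in TrkC neurons and Runx1 in nonpeptidergic nociceptors, while Etv1 acts in the maturation of proprioceptors, Shox2 and the large Maf factors Maf and Mafa in mechanoreceptors, and Prdm12 in the specification of nociceptors.

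Wells were kept where they held at least 10000 UMIs and where Avil, a gene of sensory neurons, and Isl1 together reached 100 CPM (counts of a gene scaled to one common total of UMIs per well). This left 799 of 1536 wells, 434 of 960 at e15.5 and 365 of 576 at p1, termed sensory wells. Isl1 is a member and takes part in this rule, so its difference with age is also given with wells chosen by Avil alone, while its other values rest on wells chosen in part by Isl1. The wells nearest to the limit held 101 CPM (inside) and 94.9 CPM (outside) at e15.5, and 111 and 99.3 CPM at p1. A further 437 wells at e15.5 had 10000 UMIs but under 100 CPM of the 2 genes together (non-sensory wells), against 4 at p1. The 2 genes were not absent from the 437 wells, which held 146 UMIs of Avil and 127 of Isl1 in all. Sensory wells were sorted by their leading receptor, the neurotrophin receptor gene with at least 3 UMIs and 2 times the UMIs of each other gene of that family. At e15.5, 349 wells were Ntrk3-led and 14 Ntrk2-led, and at p1 351 were Ntrk3-led and 7 Ntrk2-led. The remaining sensory wells are grouped here as being in neither class.

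Libraries held 3701900 to 9299431 UMIs at e15.5 and 386517 to 8814472 at p1, with 18 to 78 and 12 to 83 sensory wells. Library 3 at p1 stood apart, with the 386517 UMIs and the 12 wells. The median sensory well held 101156 UMIs at e15.5 and 55567 at p1, and the median non-sensory well 26755. In Ntrk3-led wells, all 5 sensory neuron markers were found in the majority of wells at both ages (summed level 5535 CPM at e15.5 and 4229 CPM at p1). The proprioceptor markers Pvalb, Ntrk3, Spp1 and Whrn summed to 2146 and 2005 CPM. Avil, Isl1 and Ntrk3 took part in choosing these wells and the reporter depends on Pvalb, so these sums are no separate evidence of identity. Ntrk3 made up 1691 and 1094 CPM, Spp1 12.5 and 26.1 CPM, and Whrn 12.1 and 62.7 CPM. The 4 mechanoreceptor markers, which include Ntrk2, kept low by the class rule, summed to 150 and 94.5 CPM. Markers of other cell types were low in sum but uneven: glia 383 CPM at both ages (138 to 958 and 177 to 665 over libraries), connective tissue 255 and 184 CPM, blood 89 and 103 CPM, cycling cells 88.1 and 51.6 CPM, endothelium 3.7 and 5.36 CPM, and muscle 5.08 and 6.32 CPM. The glia list reached 200 CPM in 125 sensory wells at e15.5 and 109 at p1. UMIs of Xist together with Y-linked genes (5 or more of each), which a single cell should not hold, were found in 9 e15.5 sensory wells and in 0 at p1. Doublets were not removed. No 2 wells held identical counts.

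The members lie on separate chromosomes, and none of them shares a locus with another (GRCm38). Runx3 (ENSMUSG00000070691) spans 135120652 to 135177990 on chromosome 4, plus strand, and Runx1 (ENSMUSG00000022952) 92601466 to 92826149 on chromosome 16, minus strand. Etv1 lies on chromosome 12 (38779380 to 38870484), Isl1 on 13 (116298281 to 116309689), Pou4f1 on 14 (104461676 to 104467999) and Shox2 on 3 (66971727 to 66981771). Maf lies on 8 (115682942 to 115707794), Mafa on 15 (75745490 to 75748228) and Prdm12 on 2 (31640037 to 31655795). Shox2 overlaps Rsrc1 on the opposite strand, and no source used here says whether counting used the strand. In e15.5 wells, Rsrc1 stood at 94.4 CPM where Ntrk3 led and at 85.7 CPM where Ntrk2 led, while Shox2 stood at 172 and 331 CPM, so that Rsrc1 differed less between the classes than Shox2. Prdm12 overlaps the non-coding Gm13425, which stood at 1.35 CPM in Ntrk3-led wells at e15.5 beside 10.5 CPM of Prdm12. As 1 tag is counted per transcript, CPM is not divided by gene length, and levels are compared here across groups for each gene and not between genes.

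Since Runx3 and Runx1 are the pair whose exclusive use is examined below, their promoter letters are shown, with those of the family member Runx2 for comparison and of Etv1, the only other member whose window held the Runt core motif TGTGGT, which reads as ACCACA on the other strand. RefSeq promoter windows of 300 bases (250 before and 50 after the start, build GRCm38.p6) were at hand for 7 members, in 10 windows. The stretches below are 30 bases each, 5′ to 3′ on the strand of the gene, with the motif in capitals.

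Runx3, chr4:135120503-135120532, plus strand: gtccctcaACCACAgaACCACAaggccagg

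Runx1, chr16:92826025-92826054, minus strand: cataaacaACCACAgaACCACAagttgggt

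Runx2, chr17:44814583-44814612, minus strand: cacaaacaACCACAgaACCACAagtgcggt

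Etv1, chr12:38779878-38779907, plus strand: aaggctggagcgTGTGGTgggtggactccg

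Runx3 and Runx1 each held the motif 2 times, 134 and 126 bases before the Runx3 start and 29 and 37 bases after the Runx1 start, within a shared run of 18 bases (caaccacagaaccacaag). This run was found in 4 of 32851 windows, those of Runx1, Runx2 and Runx3 and of Gm16225, which begins beside Runx3 on the other strand. Of all windows, 16.8% held the motif at least once and 1.81% at least 2 times. In the member windows, 3 of 10 held it. The windows at another start of Runx3 (chr4:135152295-135152594), Runx1 (chr16:92697280-92697579) and Etv1 (chr12:38783461-38783760) held 0 matches. A match of letters is a description and says nothing of binding.

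The first question was which factors separate Ntrk3-led from Ntrk2-led wells at e15.5. Runx3 and Etv1 marked the Ntrk3-led wells, Shox2 was high in both classes, and Isl1 and Pou4f1 were present in both. Runx1 and Prdm12 were low in both. The receptors that define the classes are not members. Counts were summed per library and class (3 wells or more) and tested with edgeR with the library as a block. Ntrk2-led sums came from libraries 1, 3 and 7 (9 wells), so that the contrast rests on 3 libraries.

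Runx3, the Runt factor of TrkC neurons, stood at 252 to 297 CPM (median 272) in the Ntrk3-led sums of the 10 libraries. In Ntrk2-led sums it was 13.5, 0 and 19.2 CPM (3, 0 and 2 UMIs) in libraries 1, 3 and 7. No Ntrk2-led sum came near the lowest Ntrk3-led sum. The log2 difference was 5.23 ± 0.57 (SE, adjusted p = 0.00138), and it was 5.82 without library 1 and 4.41 without library 3.

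Etv1, an ETS factor, ranged from 1627 to 2189 CPM (median 1996) in Ntrk3-led sums. It was 27.1, 63.6 and 259 CPM in the Ntrk2-led sums of libraries 1, 3 and 7. The classes did not overlap, but the Ntrk2-led sums varied widely between libraries. Etv1 differed on the log2 scale by 4.28 ± 0.69 (adjusted p = 0.00738), by 3.65 without library 1 and by 4.94 without library 7.

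Runx1, the Runt factor of nociceptors, was 0 to 17.7 CPM (median 2.31) in Ntrk3-led sums. In Ntrk2-led sums it was 0, 0 and 47.9 CPM in libraries 1, 3 and 7, and the difference did not pass the test (log2 difference -0.17, adjusted p = 0.98). Of the 3 summed libraries only library 7 held Runx1 (5 UMIs in 2 wells), and 4 of all 14 Ntrk2-led wells had a UMI of it.

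Prdm12, a factor of nociceptor specification, ranged from 0 to 47.8 CPM (median 5.36) in Ntrk3-led sums. In the Ntrk2-led sums of libraries 1, 3 and 7 Prdm12 was 13.5, 2.77 and 0 CPM (3, 1 and 0 UMIs). It stayed within the range of the Ntrk3-led sums. Its difference did not pass the test (log2 difference 1.62 ± 1.34, adjusted p = 0.664).

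Shox2, a factor of TrkB mechanoreceptors, stood at 134 to 255 CPM (median 167) in Ntrk3-led sums and at 415, 354 and 134 CPM in the Ntrk2-led sums of libraries 1, 3 and 7. The classes overlapped, and the difference did not pass the test (log2 difference -0.59 ± 0.34, adjusted p = 0.485). Within the Ntrk2-led class, 8 of 14 wells had at least 3 Shox2 UMIs and pooled to 369 CPM of Shox2 and 1546 CPM of Ntrk2. The other 6 wells had 7.01 CPM of Shox2, 344 CPM of Ntrk2 and 49.1 CPM of Isl1, and 4 of them passed 200 CPM of the glia list.

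Maf was 15.3 to 163 CPM (median 58) in Ntrk3-led sums and 510, 149 and 220 CPM in the Ntrk2-led sums of libraries 1, 3 and 7. Only library 3 brought the classes to overlap. The difference did not pass the test (log2 difference -1.85 ± 0.53, adjusted p = 0.119), and it was -2.69 (adjusted p = 2.71e-12) without library 3. The latter fit has Ntrk2-led sums from libraries 1 and 7 only, of 3 wells each. Its p-value therefore says little of the spread between libraries. Within the Ntrk2-led class, Maf was 155 CPM in the 8 wells with Shox2 and 736 CPM in the other 6. Over the 14 single wells the median was 166 CPM, the 90th percentile 329 CPM and the highest well 5868 CPM. A single well can therefore weigh heavily on these pooled levels and on the sums of 3 wells. Ntrk2-led wells held 2009 CPM of connective tissue markers (99.6 to 18483 over the 3 libraries) and 907 CPM of glia markers (36 to 2522), against 255 and 383 CPM in Ntrk3-led wells, and the part of these cells in the Maf level was not tested. Maf is also a gene of other cells in these plates, since the non-sensory wells, which carried connective tissue markers at 27991 CPM and glia markers at 5053 CPM, held 186 to 1089 CPM of Maf (median 474 over 9 libraries).

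Isl1 was 430 to 800 CPM in Ntrk3-led sums and 650, 357 and 306 CPM in the Ntrk2-led sums of libraries 1, 3 and 7. Pou4f1 was 170 to 259 CPM and 235, 346 and 192 CPM in the same order. Neither gene passed the test (log2 difference 0.71 ± 0.35, adjusted p = 0.409, for Isl1 and -0.10 ± 0.25, adjusted p = 0.92, for Pou4f1). Mafa had 0 UMIs in all 434 sensory wells at e15.5, which allows up to 0.691% of wells with a UMI (3 counts, counting error only).

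**Figure D1:**
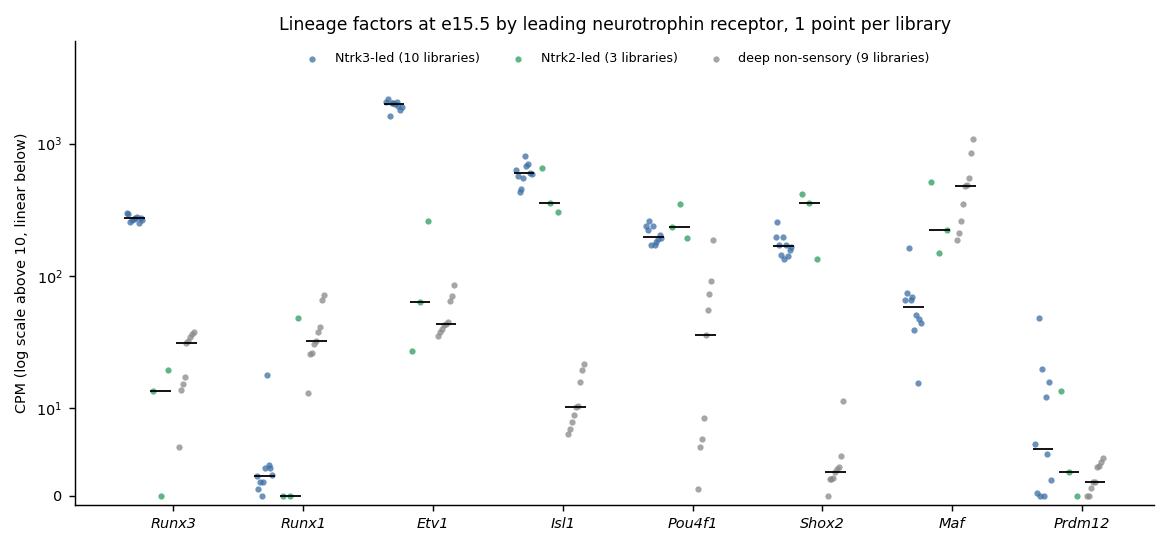
Level of 8 factors at e15.5 in CPM (log scale above 10, linear below), 1 point per library for Ntrk3-led (10 libraries), Ntrk2-led (3) and non-sensory wells (9), with a bar at the median of the libraries. Runx3 and Etv1 are highest in Ntrk3-led wells, Shox2 is high in both receptor classes, and Maf has a median of 474 CPM in non-sensory wells.

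In all, 2 members were higher and 0 lower in Ntrk3-led than in Ntrk2-led wells, out of 8 tested, where 1.15% and 0.726% of the 12945 genes tested were called in these directions. The split of calls depended on the tool, with 149 genes higher and 94 lower by edgeR and 194 higher and 212 lower by DESeq2. The number of members called was 2 to 4 under the alternatives run.

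Of 35 other factors listed for sensory lineages, 27 were tested between the classes, and 1 was higher and 4 lower in Ntrk3-led than in Ntrk2-led wells (median log2 difference -0.58, beside 0.07 over all genes). Runx1t1, of a family of corepressors, was higher (1.89 ± 0.25, adjusted p = 0.00301). The lower genes were Ebf3 (-1.90 ± 0.30, adjusted p = 0.00728), Isl2, a paralog of Isl1 (-1.78 ± 0.30, adjusted p = 0.0108), Prrxl1, a homeodomain factor of nociceptive circuits (-2.70 ± 0.51, adjusted p = 0.0175), and Etv5, a relative of Etv1 (-2.54 ± 0.51, adjusted p = 0.0256).

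The second question was how far Runx3 and Runx1 exclude each other in single cells. Among e15.5 sensory wells with at least 5 UMIs of the 2 genes together (335 wells), Runx3 made up 90% or more of these UMIs in 295 wells and Runx1 in 23, and 17 wells lay between. In the 303 Ntrk3-led wells among them the counts were 293, 0 and 10, so that none of the wells dominated by Runx1 was Ntrk3-led. In the 252 Ntrk3-led wells with under 200 CPM of glia markers, 250 were at 90% or more Runx3 and 2 between. In non-sensory wells the 2 genes were mixed, with 42 of 54 wells between.

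At e15.5, 297 sensory wells had at least 3 Runx3 UMIs and none of Runx1, and 293 of them were Ntrk3-led. Their pooled levels were 283 CPM for Runx3, 2035 CPM for Etv1, 178 CPM for Shox2 and 0.859 CPM for Prdm12. The reverse, 3 Runx1 UMIs or more and none of Runx3, was seen in 19 wells from 6 libraries, 0 of them Ntrk3-led and 0 Ntrk2-led. These wells held 315 CPM of Runx1, 363 CPM of Prdm12 and 438 CPM of Scn10a, which encodes a sodium channel of nociceptors, beside 236 CPM of Etv1 and 10.6 CPM of Shox2. Isl1 was near in both states (627 and 702 CPM).

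Wells with 3 UMIs or more of both Runt genes numbered 9 at e15.5, from 7 libraries. Of these, 6 were Ntrk3-led, 7 passed 200 CPM of glia markers, and 5 were among the 9 wells that held both Xist and Y-linked UMIs. Their median depth was 166870 UMIs, against 113110 in wells with Runx3 alone. They carried 153 CPM of Runx3 and 123 CPM of Runx1 together with 962 CPM of Ntrk3. They also held 169 CPM of Scn10a, 102 CPM of Prdm12 and 139 CPM of Calca, a neuropeptide gene of nociceptors, against 0.651, 0.859 and 0.237 CPM in wells with Runx3 alone. At p1 there were 13 such wells, of which 10 were Ntrk3-led and 8 passed 200 CPM of glia markers (median 129232 UMIs), and none held Xist and Y-linked UMIs together. The part that more than 1 cell in a well, or transcripts from other wells, took in these counts was not tested.

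**Figure D2:**
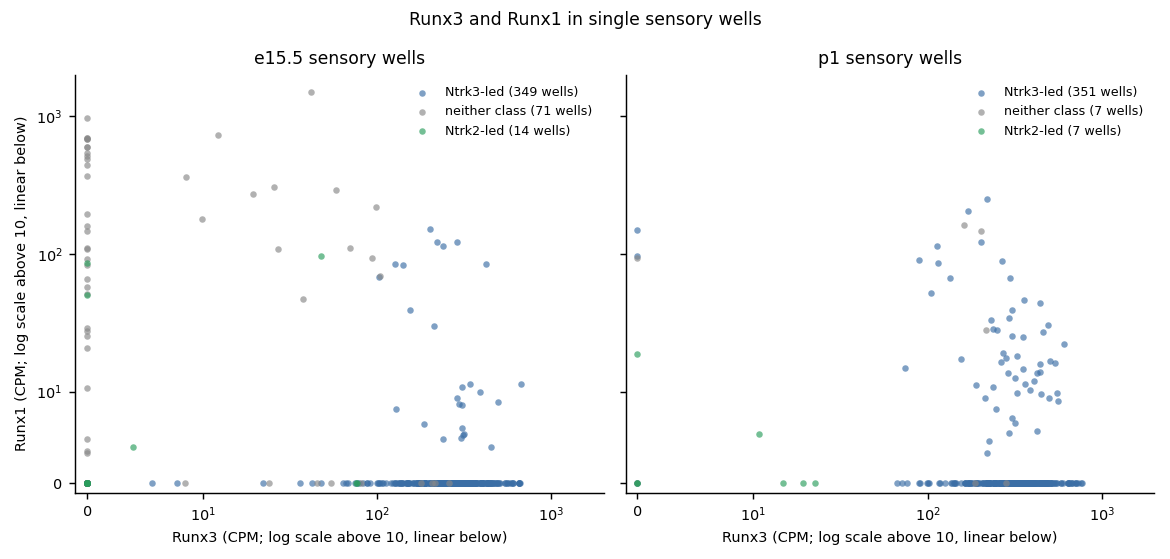
Runx3 (horizontal) against Runx1 (vertical) in CPM, 1 point per sensory well at e15.5 (left) and p1 (right), colored by leading receptor, both axes on a log scale above 10 and linear below. Most Ntrk3-led wells lie along the Runx3 axis, and 1 Ntrk3-led p1 well holds Runx1 alone. The 19 e15.5 wells with Runx1 alone lie at 0 Runx3 and in neither class, and the 9 e15.5 wells with 3 UMIs of both lie between.

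To compare wells at equal depth, each was thinned to 10000 UMIs, and the wells in which both genes of a pair were found were set beside the count expected from the 2 shares within each library. Runx3 and Runx1 were found together in 6 wells at e15.5 where 26.3 were expected (0.228 of expected), below expectation in all 10 libraries. With all UMIs the pair was found in 41 wells against 55.1 (0.744, above in 1 library), and with 3 UMIs or more of each in 9 against 24.4 (0.369). Runx3 and Prdm12 were found together in 9 wells where 31 were expected, below in the 9 libraries that gave an expectation. Runx1 and Prdm12 went the other way, with 24 wells against 7.23 expected (3.32 times, above in 7 of 9 libraries). Runx3 and Shox2 were together in 234 wells against 203 (above in 10 of 10 libraries), and Runx3 and Maf in 70 against 98 (below in 10 of 10). In Ntrk3-led wells alone Runx3 and Runx1 were together in 4 wells against 6.84 expected.

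At p1, 1 well held Runx1 alone, and it was Ntrk3-led. Among p1 Ntrk3-led wells, 312 had at least 5 UMIs of the 2 Runt genes together. Runx3 made up 90% or more of these UMIs in 300 wells and Runx1 in 1, and 11 lay between. The pairs without Prdm12 lay near expectation at p1, with 14 wells of Runx3 and Runx1 together against 17.6. Where a factor is found in nearly every well this ratio is held near 1, and 351 of 365 p1 sensory wells were Ntrk3-led. Exclusion of Runx3 and Runx1 at p1 can therefore not be judged from it. Prdm12 was found in 3 thinned wells at p1, and with all UMIs Runx1 and Prdm12 were together in 13 wells at p1 against 2.67 expected (4.87 times, above in 6 of 6 libraries). This count is not at equal depth. The 4 p1 wells with 3 Prdm12 UMIs or more had a median of 168902 UMIs, against 55567 over p1 sensory wells. The part of depth in this count was not tested. The share of thinned sensory wells with both Runx3 and Runx1 was 4.54 ± 2.77% at p1 (SD, n = 6 libraries, 1.2 to 8.33%) and 1.45 ± 1.79% at e15.5 (n = 10, 0 to 5%), a difference of 3.09 percentage points (exact permutation test, two-sided, p = 0.023). The libraries overlapped, and these shares rest on single UMIs of Runx1. With all UMIs the difference was 4.15 points and did not pass the test (exact permutation p = 0.233). With 2 UMIs of each gene required it was -0.0973 points (exact permutation p = 1), and without p1 library 1 or library 3 it was 2.79 and 2.33 points (exact permutation p = 0.0553 and 0.0606). In thinned Ntrk3-led wells Runx1 was found in 2.29% of wells at e15.5 and 5.13% at p1, against 21.5% of non-sensory wells, so that no expression is read from these shares.

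**Figure D3:**
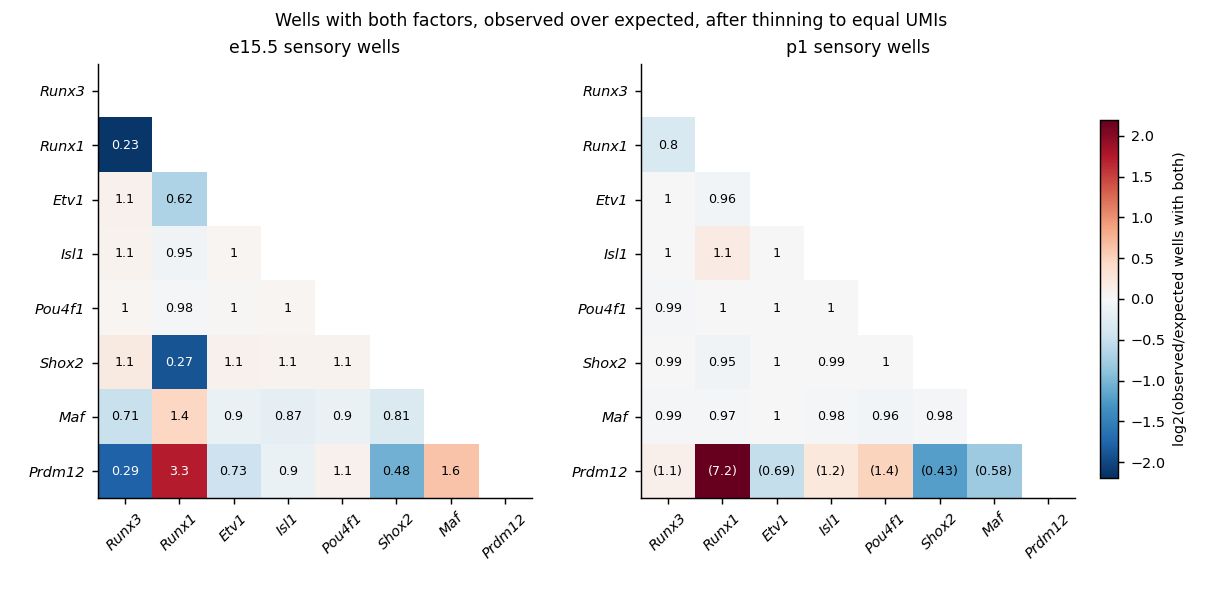
Wells in which both factors of a pair were found after thinning to 10000 UMIs, observed over expected within libraries, at e15.5 (left) and p1 (right), with the color on a log2 scale and ratios printed in the cells (in parentheses where fewer than 5 wells were expected). At e15.5 Runx3 with Runx1 (0.228), Runx1 with Shox2 (0.267) and Runx3 with Prdm12 (0.29) are lowest and Runx1 with Prdm12 (3.32) is highest, while at p1 the pairs without Prdm12 lie between 0.797 and 1.13. A factor found in nearly every well holds its ratios near 1.

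Most proprioceptor-like wells carried the whole set of factors. Runx3, Etv1, Isl1, Pou4f1 and Shox2 were all found in 322 of 349 Ntrk3-led wells at e15.5 (92.3%, exact 95% interval 88.9 to 94.8%) and in 325 of 351 at p1 (92.6%, 89.3 to 95.1%). The same was true of 1 of 14 Ntrk2-led wells and of 1 of 437 non-sensory wells at e15.5, and of 4 of 7 Ntrk2-led wells at p1 (57.1%, 18.4 to 90.1%). Runx1, Isl1, Pou4f1 and Prdm12 were all found in 5 Ntrk3-led wells at e15.5 and 9 at p1. After thinning to 10000 UMIs the first set was complete in 53% and 46.7% of Ntrk3-led wells. It was complete in 0 of the thinned Ntrk2-led wells at either age and in 0 of the thinned non-sensory wells. The counts therefore depend on depth, with a median of 111401 UMIs in e15.5 Ntrk3-led wells and 26755 in non-sensory wells. Isl1 is part of this set, and non-sensory wells were chosen by low Avil and Isl1. Their count is therefore in part fixed by that rule. Intervals cover counting error only, and wells of a library are not independent.

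Some Ntrk3-led wells did not carry this set. Runx3 was at 0 in 15 of them at e15.5, from 7 libraries. These wells were shallower (median 31101 UMIs, against 116415 in the 319 wells with 3 Runx3 UMIs or more), 8 of them passed 200 CPM of glia markers and 1 held Xist and Y-linked UMIs. Their pooled levels were 166 CPM of Etv1 (2016 in the others), 503 CPM of Ntrk3 (1754) and 78.4 CPM of Pvalb (446), but 1425 CPM of Ret (10.2), the receptor of GDNF family ligands, 484 CPM of Maf (31.5) and 196 CPM of Prdm12 (3.08). Pou4f1 was 392 CPM beside 200 CPM. Pooled levels weigh wells by their UMIs, so a few deep wells can set them. They need not describe each of the 15 wells. A further 15 wells with 1 or 2 Runx3 UMIs held 870 CPM of Ret and 608 CPM of Maf. At p1 Runx3 was at 0 in 3 Ntrk3-led wells.

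Prdm12 was found with 3 UMIs or more in 13 Ntrk3-led wells at e15.5, from 7 libraries, of which 5 passed 200 CPM of glia markers and 4 held Xist and Y-linked UMIs. They pooled to 97.5 CPM of Runx3, 47.4 CPM of Runx1, 322 CPM of Maf and 1016 CPM of Ret, beside 285, 0.863, 33.8 and 11.7 CPM in the 308 wells without Prdm12. Wells were chosen by 1 gene here and the other genes are given as a description, in pooled levels that a few deep wells can set.

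Cell-to-cell spread within the Ntrk3-led class differed among the factors. Runx3 had a median of 267 CPM over e15.5 wells with a middle range of 187 to 339 CPM, and 315 CPM (238 to 406) at p1. Etv1 had 1953 CPM (1566 to 2362) and 1405 CPM (990 to 1926), and Isl1 585 CPM (414 to 727) and 257 CPM (167 to 369). Pou4f1 had 184 and 127 CPM, and Shox2 151 and 192 CPM. Maf was the most uneven of the 6, with a median of 7.53 CPM at e15.5, a 90th percentile of 214 CPM and a highest well of 1674 CPM (40.2 and 909 CPM in wells with under 200 CPM of glia markers), and at p1 a median of 79.9 CPM. The median well held no UMI of Runx1 or Prdm12 at either age.

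In thinned counts, where a Fano factor (variance over mean) of 1 is the counting noise of a Poisson variable, the median over libraries was 4.34 for Etv1, 5.21 for Maf, 1.88 for Isl1, 1.45 for Runx3, 1.41 for Shox2 and 1.25 for Pou4f1 at e15.5. The median over 4405 genes of sufficient level was 1.1, and 98.6% of them lay at or below Maf and 98.3% at or below Etv1. At p1 Etv1 had 2.16, Maf 2.29, Isl1 1.46, Shox2 1.57 and Pou4f1 1.34, and Runx3 had 1.16, equal to the median of 3734 genes. Fano factors rise with the level of a gene, and no test was made of the change between ages.

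**Figure D4:**
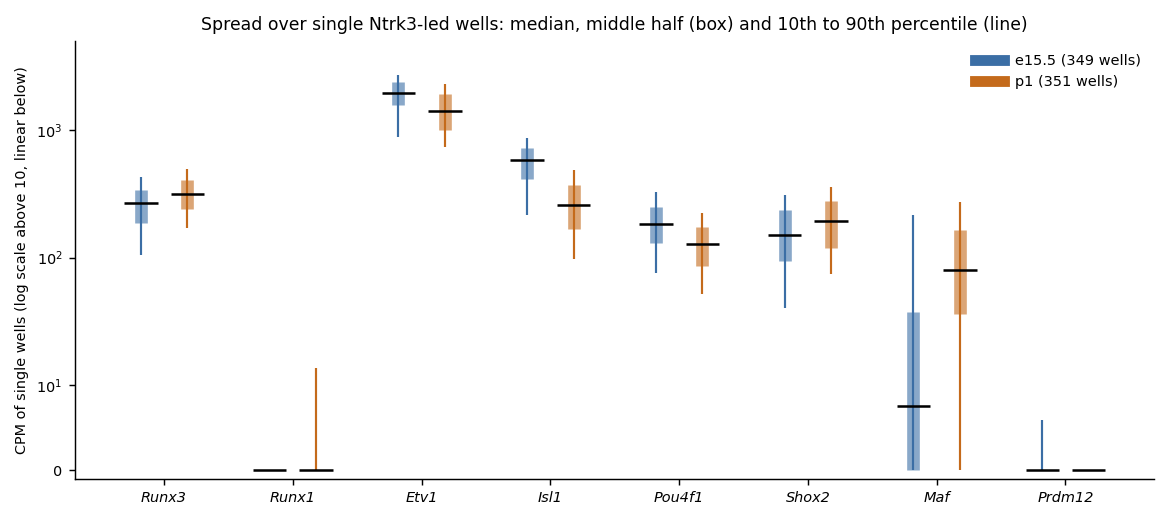
CPM of single Ntrk3-led wells for 8 factors at e15.5 (349 wells) and p1 (351 wells), on a log scale above 10 and linear below, with the median (black bar), the middle range from the lower to the upper quartile (box) and the 10th to 90th percentile (line). Maf has the widest spread at e15.5, with a median of 7.53 CPM and a 90th percentile of 214 CPM, and Isl1 is lower at p1 (257 CPM) than at e15.5 (585 CPM).

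Within libraries, Ntrk3-led wells with more Runx3, Etv1, Isl1 or Shox2 tended to hold more of the other 3 at e15.5 and less Maf, while Pou4f1 varied more on its own. Over 292 Ntrk3-led wells, from the 6 libraries with at least 20 of them, the median Pearson r, on log2(CPM + 50), was 0.525 for Etv1 and Runx3 (0.361 to 0.801), 0.616 for Etv1 and Isl1, -0.654 for Etv1 and Maf (-0.764 to -0.248) and -0.512 for Maf and Runx3. For Pou4f1 it was 0.065 with Runx3 (3 of 6 libraries positive), 0.142 with Shox2, 0.246 with Etv1 and 0.253 with Isl1, and the first of these was -0.065 with few glia transcripts. In wells with under 200 CPM of glia markers Maf and Runx3 had -0.554 and Etv1 with Maf -0.789, each with 1 of 6 libraries positive. At p1 the same values over 5 libraries (339 wells) were 0.0206 for Etv1 and Runx3, 0.137 for Etv1 and Isl1, -0.0555 for Etv1 and Maf and -0.0454 for Maf and Runx3. These correlations are across wells that share a library and differ in depth, and are descriptions.

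The genes with patterns most like each factor over e15.5 sensory wells were named by the highest median r over 9 libraries among 15398 genes. For Runx3 they were Kcnip2 (0.823), Etv1 (0.796) and Pvalb (0.776), and for Etv1 Kcnip2 (0.807), Runx3 and Pvalb (0.783). For Runx1 they were Ldb2 (0.884, from 0.0406 to 0.893 over libraries) and Insrr (0.861, from 0.0131 to 0.955). For Prdm12 they were Scn10a (0.883, from 0 to 0.957) and Nwd2 (0.856, from -0.0897 to 0.914). Isl1 was most like Map7 (0.748), Pou4f1 most like Prph (0.772), which encodes peripherin, Shox2 most like Synm (0.695), and Maf most like Tead1 (0.641), Phgdh (0.634) and Cdh11 (0.612). The promoter of Pvalb drives the reporter of the sorted cells. Sensory wells mix the receptor classes, so these values also reflect differences between classes. Within Ntrk3-led wells at e15.5 Runx3 was most like Tshz2 (0.597) and Etv1 most like Isl1 (0.616), while Isl1 was again most like Map7 (0.692). Within Ntrk3-led wells at p1 Runx3 was most like Adgrg2 (0.399).

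The third question was how the factors differed between e15.5 and p1. In Ntrk3-led wells Runx3, Shox2 and Maf were higher and Isl1, Pou4f1 and Prdm12 lower at p1, and Etv1 and Runx1 did not pass the test. This made 3 members higher and 3 lower of 8 tested, in a comparison in which 30.0% of the 13932 genes tested were called higher and 31.1% lower, so a call by itself sets no member apart. The median log2 difference of all genes was -0.03.

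Runx3 in Ntrk3-led wells was 252 to 297 CPM at e15.5 (median 272, 10 libraries) and 218 to 348 CPM at p1 (median 323, 6 libraries). At p1, 4 libraries lay above every e15.5 library and 1 below. Runx3 was higher at p1 by 0.42 ± 0.08 on the log2 scale (SE, adjusted p = 0.000196), and 0.31 to 0.66 under the settings tried.

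Maf in Ntrk3-led wells was 15.3 to 163 CPM at e15.5 (median 58) and 87.4 to 146 CPM at p1 (median 114). All e15.5 libraries but library 3 lay below every p1 library. The log2 difference was 1.12 ± 0.30, a 2.18-fold rise (adjusted p = 0.00323). With wells of 200 CPM glia markers left out, the levels were 5.24 to 51 CPM (median 19.7) and 68.4 to 117 CPM (median 94.7), without overlap, and the log2 difference was 2.10 ± 0.38 (adjusted p = 9.81e-05). In thinned wells Maf was found in 24.4% of Ntrk3-led wells at e15.5 and in 59.5% at p1, against 60.9% of e15.5 non-sensory wells, and in 13.9% and 50.2% of those with few glia transcripts. Maf together with Shox2 was found in 16% and 47.6% of thinned Ntrk3-led wells.

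Shox2 in Ntrk3-led wells was 134 to 255 CPM at e15.5 (median 167) and 117 to 243 CPM at p1 (median 183), with wide overlap. Its log2 difference of 0.36 ± 0.13 (adjusted p = 0.0256) did not pass the test with wells of 200 CPM glia markers left out (0.36, adjusted p = 0.0641), without p1 library 4 (0.25, adjusted p = 0.115) or with no filter on low counts (0.25, adjusted p = 0.181).

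Isl1 in Ntrk3-led wells was 430 to 800 CPM at e15.5 (median 596) and 195 to 445 CPM at p1 (median 261), where 5 of 6 p1 libraries lay below every e15.5 library. The log2 difference was -0.82 ± 0.17 (adjusted p = 0.000354), and -0.80 (adjusted p = 0.000338) with wells chosen by Avil alone. Over all sensory wells the libraries did not overlap (436 to 755 and 195 to 429 CPM). Pou4f1 was 170 to 259 CPM at e15.5 (median 198) and 122 to 143 CPM at p1 (median 138), without overlap, a log2 difference of -0.36 ± 0.10 (adjusted p = 0.00342). When each well was thinned and so weighed alike, the Pou4f1 difference was -0.15 (adjusted p = 0.342).

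Etv1 in Ntrk3-led wells was 1627 to 2189 CPM at e15.5 (median 1996) and 1145 to 2015 CPM at p1 (median 1594). Its log2 difference of -0.05 ± 0.11 (adjusted p = 0.724) did not pass the test. At p1, 3 libraries lay below every e15.5 library and 3 among them. Prdm12, low at both ages, went from 0 to 47.8 CPM (median 5.36) to 0.249 to 8.38 CPM (median 0.405), a log2 difference of -3.89 ± 1.05 (adjusted p = 0.00337). It rested on 410 UMIs in 41 of 349 wells at e15.5 and on 16 UMIs at p1. Fewer wells with Prdm12 and less of its RNA per well cannot be told apart here.

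Runx1 in Ntrk3-led wells was 0 to 17.7 CPM at e15.5 (median 2.31) and 2.2 to 29.3 CPM at p1 (median 4.5), with a log2 difference of 0.80 ± 0.61 (adjusted p = 0.267). The highest e15.5 level was that of library 7, and without this library the difference was 1.54 (adjusted p = 0.00884). With the wells that held Xist and Y-linked UMIs left out (349 to 343 wells) it was 2.27 (adjusted p = 0.00203). At e15.5, 6 Ntrk3-led wells had 3 Runx1 UMIs or more, and 4 of them passed 200 CPM of glia markers.

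**Figure D5:**
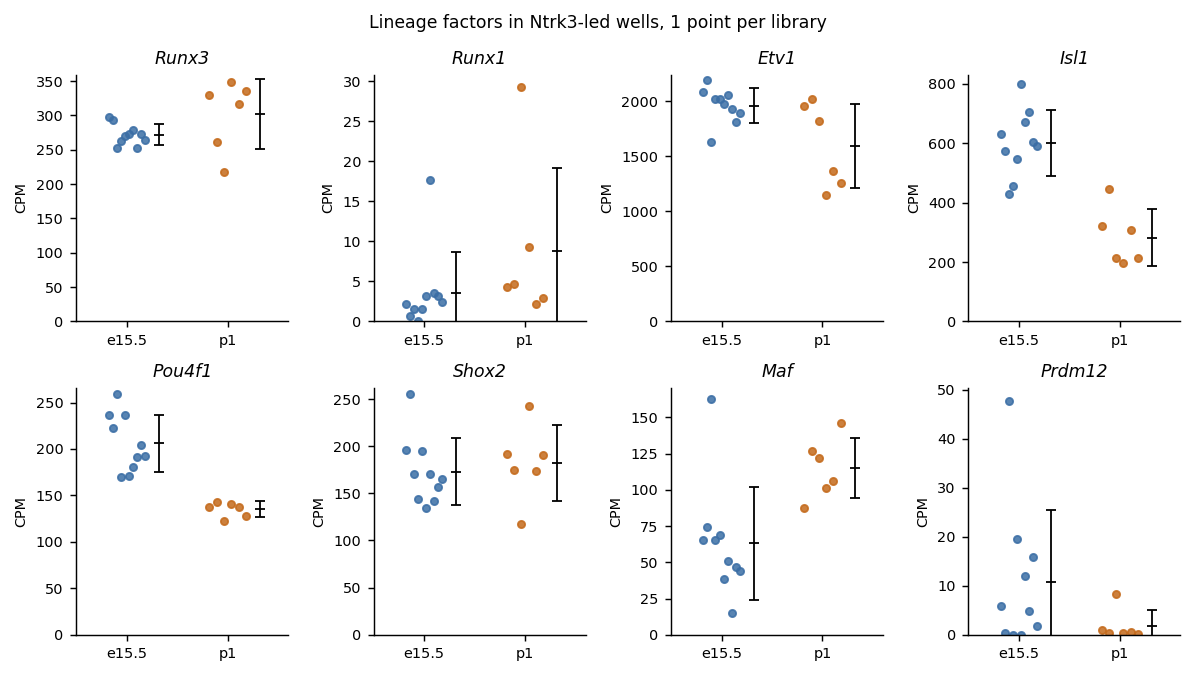
Level of 8 factors in Ntrk3-led wells in CPM (linear axes from 0), 1 point per library at e15.5 (10) and p1 (6), with the mean and SD beside the points. Pou4f1 is lower in all p1 libraries (122 to 143 CPM) than in any e15.5 library, Maf is higher in p1 libraries than in all e15.5 libraries but 1, and Etv1 and Shox2 overlap between ages.

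Over all sensory wells, where 28.6% of 14381 genes were higher and 31.1% lower at p1, the same 3 members were higher and the same 3 lower. The log2 difference was 0.64 ± 0.13 for Runx3, 0.50 ± 0.16 for Shox2 and 0.75 ± 0.27 for Maf (adjusted p = 0.000353, 0.00961 and 0.022). It was -0.79 ± 0.17 for Isl1, -0.36 ± 0.12 for Pou4f1 and -4.07 ± 0.87 for Prdm12 (adjusted p = 0.000543, 0.0171 and 0.000577), the last -4.97 without p1 library 6. For Runx1 it was -1.49 ± 0.67 (adjusted p = 0.0609) and for Etv1 0.16 ± 0.15 (adjusted p = 0.38). The sums hold different shares of cells, with 19 wells of Runx1 alone at e15.5 and 1 at p1, and in such sums fewer cells of a type and less RNA per cell cannot be told apart. For Maf the difference was 0.63 (adjusted p = 0.0696) without p1 library 2, which held 6 of the 7 Ntrk2-led wells, and 0.26 (adjusted p = 0.503) with thinned wells.

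Among the 35 other listed factors, 28 were tested with age. In Ntrk3-led wells 6 were higher and 13 lower at p1 (median log2 difference -0.43), and in all sensory wells 7 were higher and 16 lower (median -0.65, beside -0.05 over all genes). Sox11, a SoxC factor of young neurons, fell by 1.82 on the log2 scale in both sets (adjusted p = 3.03e-10 in Ntrk3-led wells). Lmo1, a LIM-only cofactor, changed by -2.93 ± 0.31 and Pou4f2, a paralog of Pou4f1, by -1.58 ± 0.22 in Ntrk3-led wells, while Six4 (0.95 ± 0.12) and Klf7 (0.62 ± 0.09) rose. In all sensory wells Etv4, a relative of Etv1, changed by -4.06 ± 0.48 and Ldb1, a partner of LIM homeodomain factors, by -0.76 ± 0.11.

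Mafa was found in 4 of the 7 Ntrk2-led wells at p1 and in no other well. The 7 wells, 6 of them in library 2, pooled to 573 CPM of Maf, 532 CPM of Shox2, 491 CPM of Pou4f1, 406 CPM of Etv1, 196 CPM of Isl1, 934 CPM of Ret and 9.81 CPM of Runx3. All 6 Mafa UMIs of the series lay in 4 of these wells, all from library 2, and gave 26.5 CPM there, beside 606 CPM of Maf and 659 CPM of Shox2. In the 351 Ntrk3-led p1 wells Mafa was at 0. With these wells from nearly 1 library, no test was made.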

How the data were processed

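Single DRG cells were sequenced by CEL-Seq2. The deposited values are UMI counts per gene and well, made by the authors with scruff against mm10/GRCm38 (per the labels), with no normalization, and 0.0617% of UMIs lay in genes without a symbol. No source used here names the aligner or the use of strand. Members and gene lists were chosen with earlier results of these data known, and similar genes were named as the 3 with the highest median r (genes found in at least 10% of wells, libraries with 20 wells or more). Counts were summed per library (5 wells or more) or library and class (3 or more) and tested with edgeR 4.0.16 (R 4.3.3, quasi-likelihood, TMM, filterByExpr, Benjamini-Hochberg over all genes, threshold 0.05), after tests on simulated data. Differences are log2 fold changes, p1 minus e15.5 or Ntrk3-led minus the other class. Age fits had 14 and the class fit 4 residual degrees of freedom. The class fit also holds sums of other wells, and results for 1 gene and for the wells it defines are not reported here. Classes of 1 library were paired, and their deviations correlated with r of -0.0287 to 0.387 (8 pairs). Shares were compared by an exact permutation test over libraries, with SciPy 1.17.1. Alternatives were DESeq2 1.42.0, no filter, thinned wells, other limits and classes, the block, and each library left out. Leaving out wells with Xist and Y-linked UMIs was added after seeing the data. Wells are named by library and number, so shared barcodes were not counted.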

Additional observations from a re-analysis of the deposited data

Results flagged for a closer look

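Within groups of 4 to 10 libraries, 33 were examined for a library standing apart from the rest (gap to its neighbour over the range), and 9 did so. Chance gives about 1 in 20 for independent, normally spread values. Here Ntrk3-led wells are part of the sensory wells and some levels lie near 0, so that rate is only a rough guide. Shox2 in library 2 at e15.5 stood at 259 CPM in sensory wells (nearest 178) and 255 CPM in Ntrk3-led wells (nearest 196). Library 3 at e15.5 held the highest Maf (163 CPM, nearest 74.1) and the highest Prdm12 (47.8 CPM, nearest 19.6) among Ntrk3-led wells, and library 7 the highest Runx1 (17.7 CPM, nearest 3.5). Library 3 at p1, with 12 sensory wells and 386517 UMIs, held the highest Runx1 in both sensory and Ntrk3-led wells (29.3 CPM, nearest 12.4 and 9.31) and the highest Prdm12 in Ntrk3-led wells (8.38 CPM, nearest 0.912). Mafa in p1 sensory wells was 0.844 CPM in library 2 and 0 in the other 5. The causes were not tested.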

How the results depend on the processing

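Of 598 values under alternative settings, 551 stayed the same, 15 lost a call, 19 gained one and 11 changed direction. A further 2, counts of called members, moved by over 1.5 times. A difference stayed the same if it kept its direction and side of the threshold, and a count of called members if it stayed within 1.5 times. Such a count can stay the same while single members gain or lose a call. The number of members called with age stayed at 5 to 7 in both sets when 1 library was left out. Against Ntrk2-led wells it was 2 to 3, and 4 without the replicate block or without a filter. The same-numbered e15.5 and p1 libraries share only a number (median r -0.225, beside 0.0151 for other numbers), and with the replicate block Shox2 was no longer called (0.48, adjusted p = 0.0563, in sensory and 0.28, adjusted p = 0.206, in Ntrk3-led wells), nor was Maf in sensory wells (0.49, adjusted p = 0.0783), while Runx1 was called in Ntrk3-led wells (2.03, adjusted p = 0.0171). Without a filter Shox2 in sensory wells was 0.39 (adjusted p = 0.0721). Thinning ended the calls of Pou4f1 (-0.20 in sensory and -0.15 in Ntrk3-led wells) and of Maf in sensory wells. Other than the share of wells with both Runt genes, the differences that changed direction were not called in the values reported above. With age, Etv1 in Ntrk3-led wells was 0.01 with thinned wells and with Avil alone, and 0.02 without p1 library 4 or 6. Against Ntrk2-led wells, Pou4f1 was 0.04 without a filter and 0.22 without library 3, Runx1 was 0.08 with DESeq2 and 6.45 without library 7, Shox2 was 0.02 with thinned wells, and Prdm12 was -0.22 without library 3. With 1 library left out in turn, the values reached -0.13 for Etv1 with age, and -0.57 for Runx1 and 3.58 for Prdm12 against Ntrk2-led wells at the other end. The share of wells with both Runt genes differed by 4.15 points with all UMIs (exact permutation p = 0.233, so the call was lost), by -0.0973 with 2 UMIs of each, and by 2.33 to 3.76 when 1 library was left out. Over all genes, calls with age went from 8584 to 4605 with thinned wells in sensory sums and from 8513 to 4277 in Ntrk3-led sums. Calls against Ntrk2-led wells went from 243 to 1275 without the block, 406 with DESeq2, 876 without a filter, 78 with thinned wells, 117 without library 1 and 681 without library 3. Leaving out the filter moved the median of all genes by over 0.1 in each comparison, to 0.13 and 0.20 with age and 0.22 against Ntrk2-led wells. For the Ntrk2-led contrast, leaving out wells with glia transcripts, a stricter lead and sums of 5 or more wells gave no value, since too few sums remained. The causes were not tested. In Ntrk3-led wells the median well held 0 UMIs of Runx1, Prdm12 and Mafa, so their sums there rest on few wells.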
